A study of Mus musculus with 45 samples.

Results

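MYAZ16.1e (MYAZ16_1e in the labels) is a cell line derived from a tumour that arose in the mammary gland of an MMTV-cMYC mouse, and it is compared here with MYAZ12.3i and MYAZ6.6g, a pair of lines of the same kind that the study treats as its biological replicates. The members were chosen by line and medium: the 3 control-medium cultures of MYAZ16.1e, set against 3 control cultures of each of the other lines, or 9 of the 45 libraries of the series, which holds 11 lines. The NDI1-expressing derivative of MYAZ12.3i was left out. The study asked how tumour cells of different metastatic potential depend on cystine, and the MYAZ line that it placed in cystine-free medium was MYAZ16.1e, so the comparison asks how far that line stands for its subtype before any deprivation.

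In an MMTV-cMYC mouse the mouse mammary tumour virus promoter drives a c-MYC transgene in the mammary epithelium, and all 3 lines carry that history. Each is 1 line, so a property of a line cannot be told apart from a property of the tumour or of the subclone that grew out. All cultures were seeded at 250000 cells per well in DMEM:F12 with serum, glutamine, insulin, hydrocortisone and EGF. For MYAZ16.1e the medium was then changed, 24 h after seeding, to fresh control medium with cystine for 6 h. The labels and the design text give this change for the MYAZ lines together, whereas the methods name MYAZ16.1e alone among them, so a difference in handling cannot be told apart from a difference between the lines. The MMTV-MYC mice of the study were female and its wild-type mice were FVB/NJ, while the ages of the donor mice and the passage numbers of the lines are not given in the sources used here. The design text calls the cultures of a line technical replicates, so the p-values of the 9-library model measure the spread between cultures of a line and not between lines. Polyadenylated RNA was sequenced from a directional library, and values are CPM, read counts relative to library size after scaling by the trimmed mean of M-values (TMM).

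The mammary gland has a luminal layer, marked by the keratin genes Krt8, Krt18 and Krt19, and a basal layer of contractile myoepithelial cells, marked by Krt5, Krt14 and Krt17 and by smooth-muscle genes such as Acta2 and Cnn1. Cell lines from Myc-driven tumours often keep part of one program while gaining mesenchymal genes such as Vim and Fn1. Cysteine for glutathione can be imported as cystine through the antiporter subunit Slc7a11 or made from methionine by transsulfuration, in which Cbs and Cth act in turn, so the resting level of those genes bears on any experiment that removes cystine.

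The libraries of the 3 lines held 19517859 to 29019988 counts, with a median of 23174191. The mitochondrial share was 1.49%, 2.24% and 2.23% in MYAZ16.1e, 0.832 to 1.2% in MYAZ12.3i and 1.48 to 1.68% in MYAZ6.6g, so replicates 2 and 3 of MYAZ16.1e lay above all other libraries and replicate 1 lay within the range of MYAZ6.6g. Its part in the results was not tested. Replicate 1 of MYAZ16.1e also stood apart from its partners in that its counts differed from theirs by 5.72 and 6.76 chi-square units per gene against 3.39 between the other two. The epithelial markers were divided in all 3 lines. The luminal list summed to 421 to 1260 CPM, with the keratin Krt8 at 219 to 807, whereas the adhesion gene Epcam lay at 0.25 to 0.717 CPM and Elf5 and Kit were at 0 counts. Vim lay between 2780 and 4040 CPM.

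MYAZ16.1e was the outlying line of the 3. The root mean square difference of log2 line means over 13795 genes was 0.803 between MYAZ16.1e and MYAZ12.3i and 0.664 between MYAZ16.1e and MYAZ6.6g, against 0.482 between MYAZ12.3i and MYAZ6.6g. Single cultures of 1 line differed by 0.361 to 0.428. A line mean averages 3 cultures and so carries less noise, and the distances between single cultures are not a like measure. The distance of MYAZ16.1e from Myc310, a line from another MMTV-MYC tumour, was 1.21, and MYAZ12.3i and MYAZ6.6g lay 1.4 and 1.32 from it. MYAZ16.1e therefore lay nearer to its own subtype than to Myc310, and nearer to Myc310 than either other MYAZ line did, on this measure and with no test.

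Against the mean of the other lines, 8848 of 12967 tested genes passed an adjusted p of 0.05 in edgeR's quasi-likelihood test (68.2%), 4386 of them higher (33.8%) and 4462 lower (34.4%). With a change of at least 2-fold as well, 276 were higher (2.13%) and 936 lower (7.22%) in MYAZ16.1e. The asymmetry grew with size, as 12 genes were at least 8-fold higher and 171 at least 8-fold lower. Against MYAZ12.3i alone 8898 genes passed (68.6%) and against MYAZ6.6g alone 7998 (61.7%). Between the other lines themselves, 6290 genes passed (48.5%) and 581 did so with at least 2-fold. The counts of the gene lists below are to be read against these shares of all tested genes.

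A stricter count kept genes in which a line lay at least 2-fold outside both others in the same direction, each difference passing the test. MYAZ16.1e had 798 such genes (6.15% of those tested), MYAZ12.3i had 385 (2.97%) and MYAZ6.6g had 111 (0.856%). Of the 798, 647 were lower (4.99% of genes tested) and 151 higher (1.16%) in MYAZ16.1e, so 81.1% were lower, whereas 24.4% of the MYAZ12.3i genes were lower. Below, fell and rose mean lower and higher in MYAZ16.1e than in the other lines, since no ancestor of the lines was measured. Without replicate 1 of MYAZ16.1e, which stood apart, the counts were 830, 412 and 119, and requiring at least 10 counts in every library gave 404, 152 and 45. No overlap between the MYAZ16.1e libraries and the other 6 was seen in 50.9% of all tested genes, the background for the genes said below not to overlap. Genes at 3 counts or fewer in all MYAZ16.1e libraries but at a mean of at least 1 CPM in the other lines numbered 35, against 5 for MYAZ12.3i and 2 for MYAZ6.6g counted the same way.

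**Figure D1:**
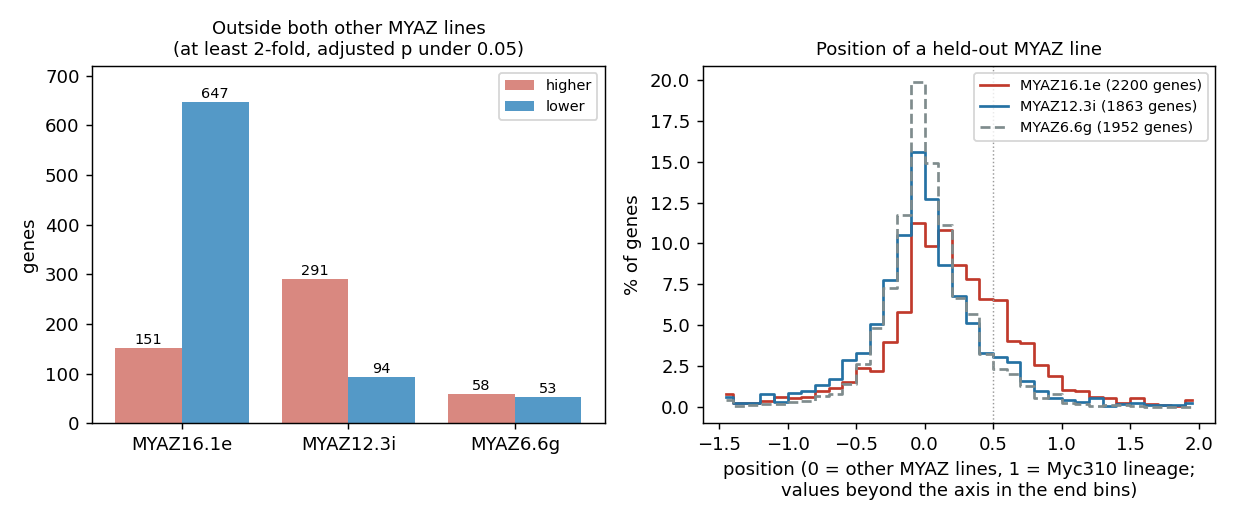
Left, bars count the genes of each MYAZ line that lay at least 2-fold outside both other MYAZ lines, higher or lower. Right, the share of genes (%) by the position of a line left out of the choice of genes, from 0 (the other MYAZ lines) to 1 (the Myc310 lineage), with a dotted line at midway. MYAZ16.1e has 647 lower and 151 higher genes, and 23.7% of its genes lie right of midway against 11.1% and 7.68%.

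The genes lowest in MYAZ16.1e relative to the other lines included contractile and stromal-type genes. Acta2, smooth-muscle actin (chr19:34241090-34255590, minus strand, GRCm38), stood at 5.36, 6.61 and 5.94 CPM in MYAZ16.1e, at 326, 308 and 307 in MYAZ12.3i and at 253, 245 and 247 in MYAZ6.6g. It was lower by 5.52 on the log2 scale (SE 0.0462, edgeR adjusted p = 1.23e-24), and no culture of MYAZ16.1e came near the others. In Myc310 and its 6 lung-derived descendants Acta2 lay between 0.0282 and 1.72 CPM, so the level in MYAZ16.1e fell between the other MYAZ lines and that lineage.

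Pdgfrb, the platelet-derived growth factor receptor beta of pericytes and fibroblasts, was at 0.298, 0.661 and 0.649 CPM in MYAZ16.1e, at 31.8 to 35.6 in MYAZ12.3i and at 22.3 to 23.4 in MYAZ6.6g, a fall by 5.61 on the log2 scale. Colec12, a scavenger receptor, fell by 6.30, and Adgra2, an adhesion receptor that works with the Wnt7a and Wnt7b ligands, fell by 7.02. Fhl1, a LIM-domain protein of muscle, was at 0, 0.142 and 0.102 CPM against 11.2 to 11.6 and 13.1 to 15, and it fell by 7.09. The calcium channel subunit gene Cacna1c fell by 5.40, the heparan sulfate proteoglycan gene Gpc4 by 4.60, Arhgap32 by 4.21, Flrt2 by 4.10 and Rhoj by 3.69. Adgra2, Colec12, Cacna1c and Arhgap32 overlap a gene on the other strand, and whether the counting used strand is not given in the sources used here, so reads of the partner could be among theirs.

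The same genes did not share 1 pattern outside the MYAZ lines. Fhl1, Colec12, Arhgap32 and Rhoj had line means of at most 0.14 CPM in Myc310 and its descendants, with Arhgap32 at 0 in all 7. Gpc4 lay at 25 to 37.2 CPM and Zfp503 at 3.93 to 16.9 in those lines, so for these genes MYAZ16.1e was the low line among all 10. Zfp503, a zinc-finger repressor (chr14:21983959-21989601, minus strand), had 0 counts in all 3 MYAZ16.1e libraries and 16.4 to 17.5 and 13 to 14.6 CPM in the others. With a floor of 3 counts over the group it was at least 362-fold lower. Ms4a4d, a membrane protein gene, had 3 counts in MYAZ16.1e and 987 in the other lines, a ratio of 165 (95% counting interval 56.2 to 799).

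Gains were smaller. Prl2c3, a prolactin-family growth factor gene, stood at 42.4, 40.9 and 49.8 CPM against 0.788 to 1.58 in MYAZ12.3i and 8.56 to 11.5 in MYAZ6.6g, a log2 fold change of 3.65 (edgeR adjusted p = 2.75e-16), and because it has near-identical neighbours its count is uncertain. Bmp7, a bone morphogenetic ligand, stood at 51.5, 55.5 and 54.6 CPM against 5.8 to 6.63 and 9.68 to 11.3 (2.78). Mgst1, a membrane-bound glutathione transferase, averaged 23.1 CPM against 5.41 to 6.23 and 2.43 to 4.17 (2.37). The other large differences in this direction were Crip1 (2.22), Olfm1 (2.05), Krt19 (1.96), Trim54 (1.78), Wnt7b (1.77), Chrnb1 (1.68), Lonrf3 (1.67), Klra4 (1.66, of a gene family with near-identical copies) and Rnf128 (1.65). Trim54, Wnt7b and Rnf128 overlap a gene on the other strand. No gene reached a mean of 1 CPM in MYAZ16.1e while every library of the other lines held 3 counts or fewer, and the highest by that rule, the pseudogene ENSMUSG00000085791, had 52 counts in replicate 2 and 0 in the other 8 libraries. Cldn6, Pet117, Mfsd6 and Pcsk6, next by the same rule, averaged 0.408 to 0.518 CPM.

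**Figure D2:**
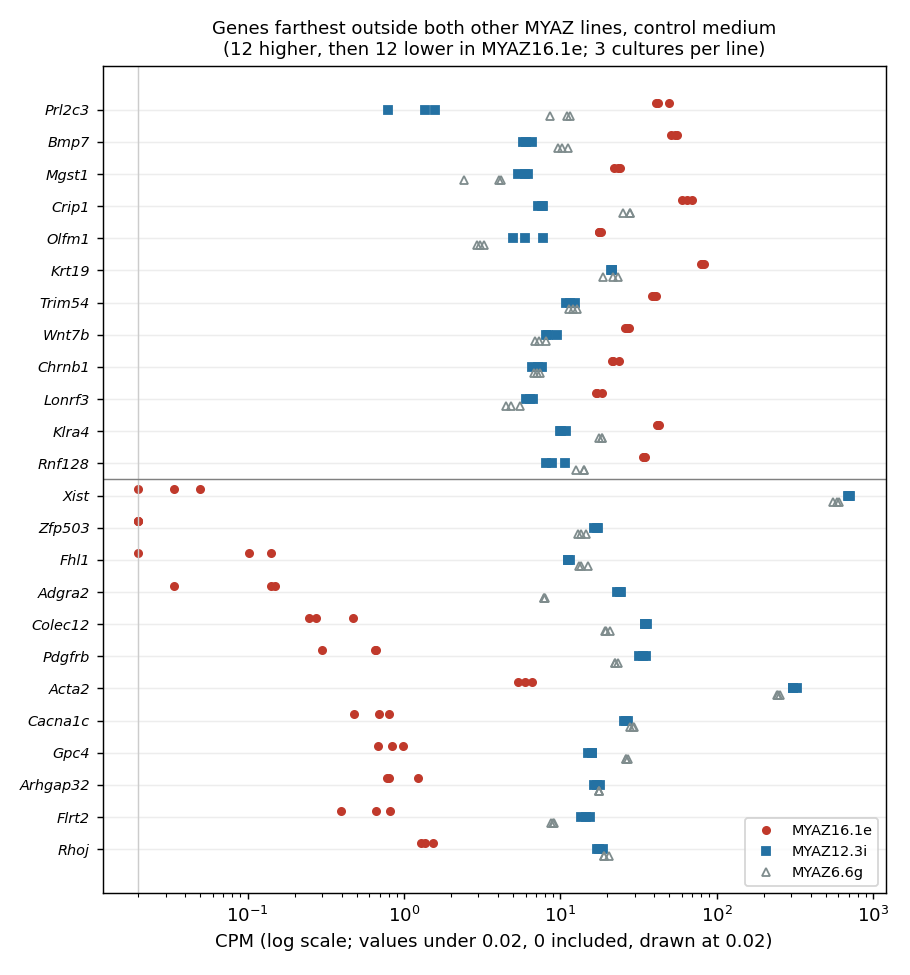
CPM on a log axis of the 12 genes with the largest increases and the 12 with the largest decreases in MYAZ16.1e among genes outside both other lines, 1 point per culture, circles for MYAZ16.1e, squares for MYAZ12.3i and triangles for MYAZ6.6g. The genes were chosen so that the circles do not overlap the other symbols, and Acta2 lies near 6 in MYAZ16.1e and at 245 to 326 in the others.

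The luminal and basal lists moved apart. Of 12 tested luminal genes, 10 were higher and 2 lower, with a median log2 fold change of 0.908 against -0.00294 over all tested genes, and the median of the same list between MYAZ12.3i and MYAZ6.6g was 0.0917. Krt8 stood at 789, 788 and 807 CPM in MYAZ16.1e, at 219 to 224 in MYAZ12.3i and at 538 to 563 in MYAZ6.6g, and rose by 1.21. Krt18, its partner filament, rose by 1.17 and Krt19 (chr11:100140810-100148665, minus strand) by 1.96, from 18.8 to 23.5 CPM in the other lines to 79.1 to 83. Prlr, the prolactin receptor, rose by 2.90 from a very low level, 0 to 0.291 CPM in the other lines and 0.546 to 1.09 in MYAZ16.1e. The estrogen receptor gene Esr1 went the other way, from 1.11 to 2.04 CPM to 0.0993, 0 and 0.171, a fall by 3.97, and the epithelial factor Elf3 fell by 1.17.

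Of 12 tested basal genes, 8 were lower, 1 was higher and 3 did not pass, with a median of -0.854. Beside Acta2, the 8 were the contractile genes Cnn1 (0, 0.142 and 0.102 CPM against 1.64 to 3.48, a fall by 4.65), Tagln (by 2.72) and Mylk (by 1.09), the keratin Krt17 (by 3.52) and the receptor Egfr (1.84 to 2.58 CPM against 9.88 to 11.1, a fall by 2.21), with smaller falls in the Notch ligand gene Jag1 (by 0.46) and the caveolin gene Cav1 (by 0.23). Itga6, an integrin of basal and stem-like cells, rose by 0.57. Krt5 and Trp63, which define the basal layer, were at 0 to 0.665 CPM in all 9 libraries. Of 17 tested growth factor and receptor genes, 7 were higher and 5 lower, and the 70.6% that passed was near the 68.2% of all tested genes. The EGF-family receptor Erbb2 rose by 0.34 and the hepatocyte growth factor receptor Met by 0.59, while Igf1r fell by 0.85 and Fgfr1 by 0.45, in a medium that supplied EGF and insulin to all lines.

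Mesenchymal genes were lower in most cases and not absent. Of 18 tested, 16 were lower and 2 higher, with a median of -0.484 and a median of -0.0488 between the other lines. Fn1, fibronectin, stood at 361, 405 and 377 CPM against 1040 to 1240 and fell by 1.57, Lox, a collagen cross-linking oxidase, fell by 2.61, and the factors Twist2 and Snai1 fell by 2.97 and 0.81. Vim, the mesenchymal intermediate filament, rose by 0.44. The factors Zeb1 and Zeb2 fell by 0.31 and 0.49, and for Cdh2 the difference was -0.09 (edgeR adjusted p = 0.025) against the mean of the other lines and 0.12 against MYAZ12.3i alone. The Cdh2 call was lost by DESeq2 (adjusted p = 0.0712), in the fit of all 30 control libraries (-0.11, adjusted p = 0.0609), with the other lines as 1 group of 6 (-0.10, adjusted p = 0.494), without replicate 2 or 3 of MYAZ16.1e, without replicate 1 or 3 of MYAZ12.3i and without replicate 2 or 3 of MYAZ6.6g (-0.06 to -0.08).

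Matrix and adhesion genes followed a mixed course. Of 11 tested basement membrane genes, 7 were lower and 2 higher (median -0.575): the laminin chains Lama5, Lamb1, Lamb2 and Lamc1 fell by 0.57, 0.45, 0.90 and 0.74, the perlecan gene Hspg2 fell by 0.38, and Col4a5 and Lamb3 rose by 0.75 and 0.74. Of 11 integrin genes, 7 were lower and 3 higher. The collagen receptor subunit Itga1 fell by 3.32, Itga7 by 1.70, Itgb3 by 1.09 and Itgb5 by 0.91, while Itga2, also a collagen receptor subunit, rose by 1.51 from 0.666 to 1.85 CPM in the other lines to 2.31 to 3.38.

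Markers of cells other than tumour epithelium were read in all libraries. The 12 fibroblast markers summed to 7.45 to 10.2 CPM in MYAZ16.1e, 95.2 to 99.5 in MYAZ12.3i and 33 to 35.4 in MYAZ6.6g, and 8 of the 12 were at 3 counts or fewer in all MYAZ16.1e libraries against 6 in each other line. Of 5 tested, 4 were lower (median -1.38): Pdgfrb, Pdgfra, Col1a1 and Col3a1, the last at 0 counts in MYAZ16.1e, at 9.67 to 10.4 CPM in MYAZ12.3i and at 1.11 to 2.35 in MYAZ6.6g, at least 138-fold lower. For Pdgfra the difference rests on MYAZ12.3i (46 to 50.7 CPM), since MYAZ6.6g (6.25 to 7.46) overlapped MYAZ16.1e (5.76 to 7.69). The defining fibroblast genes Lum, Fap and Dpt were at 0 in all 9 libraries. In bulk RNA fewer cells of a type and less RNA per cell cannot be told apart, and the part of such cells in the Acta2 and Fn1 differences was not tested.

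Leukocyte markers summed to 0.0496 to 0.236 CPM in MYAZ16.1e and to at most 0.399 in the other lines, with no member tested. Among endothelial genes Kdr fell by 0.43, a call lost without replicate 2 of MYAZ16.1e (-0.31), and Egfl7 did not pass, and Cdh5, Tie1 and Erg were at 0 in MYAZ16.1e. Of 3 tested alveolar genes (33.3% called against 68.2% of all tested genes) Hopx fell by 2.20, Ager (0.07) and Napsa (-2.11) did not pass, and the surfactant genes Sftpc and Sftpb were at 0 in all 9 libraries. The adipocyte marker Fabp4, a fatty acid carrier, fell by 1.20, from 38 to 48.5 CPM to 17.6 to 18.5, with Adipoq at 0 in MYAZ16.1e.

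**Figure D3:**
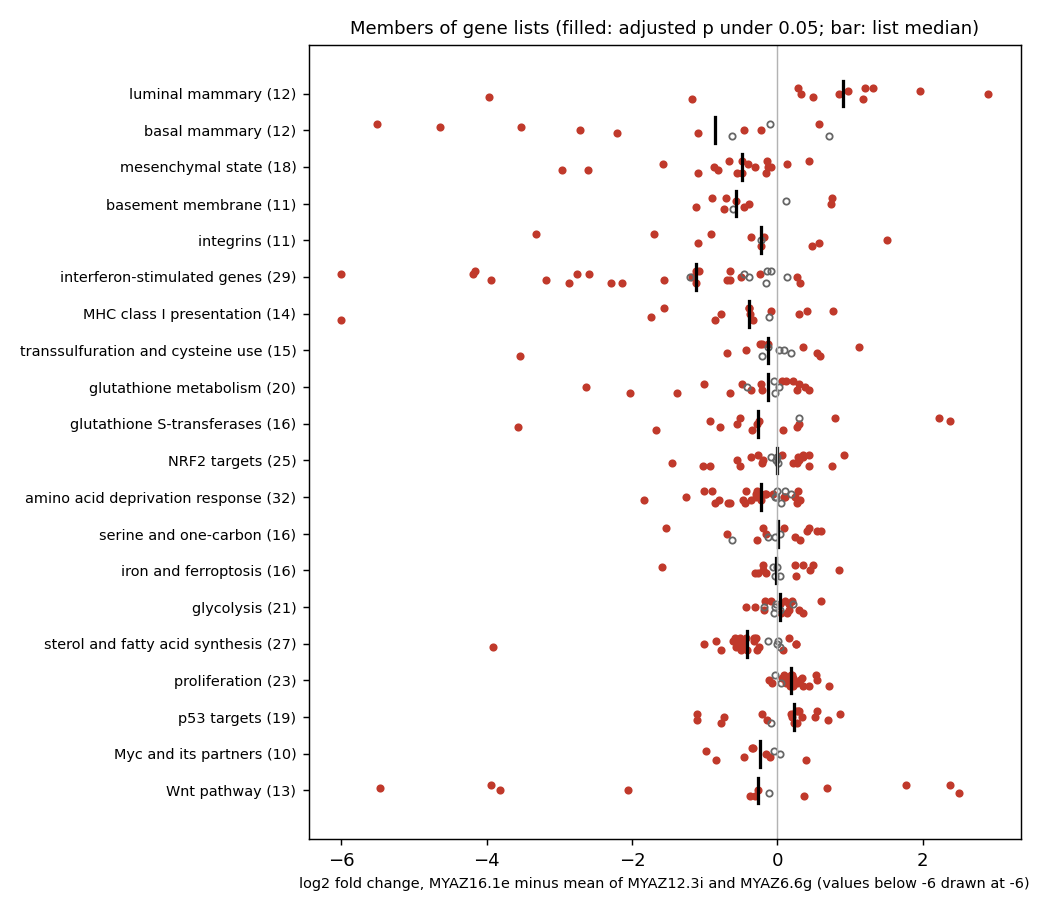
Each point is 1 tested member of a gene list, placed by its log2 fold change between MYAZ16.1e and the mean of MYAZ12.3i and MYAZ6.6g, filled where the adjusted p was under 0.05, and bars mark list medians. The luminal median lies at 0.908, the basal at -0.854 and the interferon-stimulated at -1.11, while the NRF2 list is centred near 0.

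Xist, the noncoding RNA that coats the inactive X chromosome of female cells (chrX:103460366-103483254, minus strand), gave the largest difference of all tested genes. It had 1, 0 and 1 counts in the MYAZ16.1e libraries, and stood at 714, 707 and 692 CPM in MYAZ12.3i and 605, 593 and 553 in MYAZ6.6g, a ratio of 22700 (95% counting interval 6290 to 188000). The antisense gene Tsix overlaps it, with the same limit on strand. The Y-linked gene Kdm5d was at 0 in all 9 libraries. Outside the MYAZ lines Xist stood at 81.8 CPM in Myc310 and 281 in LM2, and at 6.02 or less in the other 5 lines.

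Genes of the X chromosome were higher in MYAZ16.1e as a set. The median log2 fold change of its 377 tested genes was 0.483, with 82.5% above 0, against -0.0117 for 12568 autosomal genes with 48.7% above 0. Set beside each line, the X median was 0.614 against MYAZ12.3i and 0.344 against MYAZ6.6g, and MYAZ12.3i minus MYAZ6.6g gave -0.272. Of the 377 genes, 268 were higher and 42 lower. The relation of the low Xist count to the higher X level was not tested.

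Autosomes also differed in their medians. Chromosome 11 was higher (0.301, 77.5% of 1036 genes above 0), and to a lesser degree chromosomes 4 (0.182), 6 (0.179) and 5 (0.163). Chromosome 9 was lower (-0.314, 14.7% of 722 genes above 0), followed by chromosomes 1 (-0.173), 10 (-0.162) and 12 (-0.152). For chromosomes 11 and 9 the median kept its sign against each line, at 0.238 and 0.366 for chromosome 11 and at -0.37 and -0.261 for chromosome 9, whereas MYAZ12.3i minus MYAZ6.6g gave 0.104 for each. In windows of 10 Mb, read after these medians were seen, the first 30 Mb of chromosome 11 had medians of -0.084 to 0.00459 and its remaining windows 0.268 to 0.421. The first 40 Mb of chromosome 2 had medians of 0.265 to 0.433 and its remaining windows -0.199 to 0.0836, which the median of the whole chromosome (0.0689) does not show. Chromosome 4 was different in kind, at 0.314 against MYAZ12.3i and 0.0547 against MYAZ6.6g. Copy number was not measured.

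**Figure D4:**
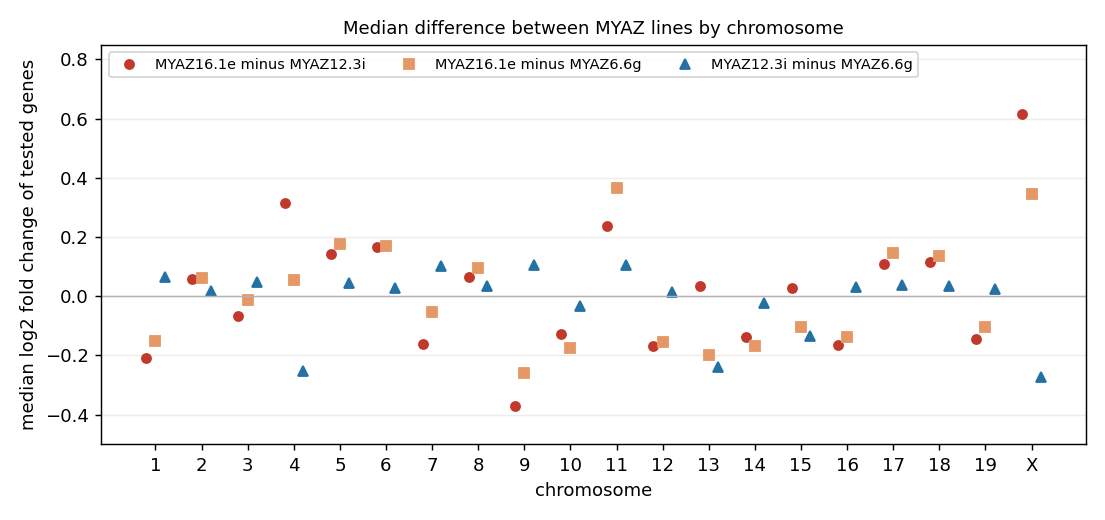
Median log2 fold change of the tested genes on each chromosome for the 3 pairs of MYAZ lines, which share libraries. In both pairs that hold MYAZ16.1e, chromosomes X and 11 lie above 0 and chromosome 9 below, at 0.614 and 0.344 for X.

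Most interferon-stimulated genes were lower in MYAZ16.1e than the mean of the other lines. Cells sense foreign nucleic acid with receptors such as Ifih1 and Ddx58, and the interferon that follows acts through factors such as Stat2 and Irf9, which bind promoter elements of repeated GAAA units. To show what such an element looks like, the 120 bases before the start are given for 3 members picked because they hold a match there. They are written 5′ to 3′ on the gene's strand, from RefSeq on GRCm38.p6. Matches to the motif GAAA, any pair of bases, GAAA or its reverse complement are in capitals, with overlapping matches merged. The stretches lie at chr19:34640769-34640888 (Ifit1, plus strand), chr4:156200819-156200938 (Isg15, minus strand) and chr5:120907526-120907645 (Oas1a, minus strand).
Ifit1: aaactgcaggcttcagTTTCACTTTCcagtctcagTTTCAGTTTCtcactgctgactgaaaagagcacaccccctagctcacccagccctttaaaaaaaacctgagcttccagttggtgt
Isg15: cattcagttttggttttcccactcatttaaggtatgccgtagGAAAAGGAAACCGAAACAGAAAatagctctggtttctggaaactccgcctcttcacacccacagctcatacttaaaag
Oas1a: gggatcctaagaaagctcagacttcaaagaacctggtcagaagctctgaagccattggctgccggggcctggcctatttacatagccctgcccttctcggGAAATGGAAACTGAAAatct

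Ifit1 holds 2 separate matches, Isg15 a run of 3 and Oas1a a run of 2. From 250 bases before to 50 after the start, the motif on either strand was found in 1131 of 32851 promoters (3.44%). Of the 32 interferon-stimulated genes, 22 had a promoter entry and 12 of those held a match (54.5%), and among the 14 called lower with an entry 8 held one. A match describes the letters of this window and says nothing of binding in these cells.

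Of 29 tested interferon-stimulated genes, 20 were lower in MYAZ16.1e, 2 were higher and 7 did not pass, with a median of -1.11. The summed level of the list was 224 to 229 CPM in MYAZ16.1e, within the 223 to 232 CPM of MYAZ6.6g and below the 332 to 357 CPM of MYAZ12.3i, so the sum set MYAZ16.1e apart from MYAZ12.3i alone. The median is taken against the mean of both other lines and does not show from which of them the list differs. Ifit1, an RNA-binding antiviral protein gene, had 2 counts in MYAZ16.1e in all and stood at 1.81 to 2.64 CPM in MYAZ12.3i and 0.126 to 0.247 in MYAZ6.6g, a ratio of 40.5 (95% counting interval 11 to 337). Oas1a, an RNA-activated nucleotide synthetase gene, stood at 0.447, 0.519 and 0.615 CPM against 2.75 to 4.82 and 1.39 to 1.91 and fell by 2.14. Isg15, the ubiquitin-like modifier, stood at 1.09, 1.13 and 1.02 CPM against 2.55 to 3.75 and 1.55 to 2.06 and fell by 1.12. In each of the 3 the order of lines was MYAZ12.3i, MYAZ6.6g, MYAZ16.1e with no overlap.

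MYAZ12.3i and MYAZ6.6g themselves differed over the list, with a median of 1.2 for MYAZ12.3i minus MYAZ6.6g. Even so, 10 of the 29 genes placed MYAZ16.1e at least 2-fold below each of them. These were Ifit1, Irf7, Oas1a, Oasl1, Oasl2, Usp18, Ifi44, Rtp4, Ifih1 and Dhx58. Among the sensors and factors, Ifih1 fell by 3.94, Irf7 by 2.60, Stat2 by 0.66 and Irf9 by 0.65. Rtp4 had 0 counts in MYAZ16.1e and was at least 22.3-fold lower. Ifi35 and Trim25, both on chromosome 11 (median 0.301), rose by 0.31 and 0.27. Cxcl10, Gbp2, Bst2 and Xaf1 were among the 7 that did not pass, at -0.15, -0.14, -0.09 and -0.46.

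Class I antigen presentation differed mainly from MYAZ12.3i. The list summed to 958 to 980 CPM in MYAZ16.1e, which overlapped the 963 to 995 CPM of MYAZ6.6g, against 1290 to 1320 in MYAZ12.3i, and 2 of its genes lay outside both lines. Of 14 tested genes, 10 were lower and 3 higher, with a median of -0.385 and a median of 0.48 between MYAZ12.3i and MYAZ6.6g. The transactivator gene Nlrc5 had 0 counts in MYAZ16.1e and was at least 15.5-fold lower. The immunoproteasome subunit Psmb8 stood at 2.83, 2.55 and 3.62 CPM against 13.8 to 15.1 and 6.75 to 8.05 and fell by 1.74, the peptide transporter gene Tap2 fell by 0.86, and the light chain B2m fell by 0.40, from 292 to 309 and 202 to 215 CPM to 182 to 193. H2-D1 fell by 0.34, H2-K1 fell by 0.09 against the mean but was higher than in MYAZ6.6g alone by 0.15, and as members of a family with near-identical copies their counts are uncertain. Psmb10, Tapbp and Erap1 rose by 0.77, 0.41 and 0.30.

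Genes of cysteine supply are those that bear on the later use of MYAZ16.1e as the deprived line. Of 15 tested transsulfuration and cysteine genes, 6 were lower, 4 higher and 5 did not pass (median -0.126), and the 66.7% that passed was near the 68.2% of all tested genes. Cbs, which joins homocysteine and serine in the first step, stood at 0.248, 0.142 and 0.205 CPM in MYAZ16.1e, at 2.37, 2.83 and 2.48 in MYAZ12.3i and at 2.66, 2.11 and 2.1 in MYAZ6.6g. It fell by 3.54 on the log2 scale (SE 0.29, edgeR adjusted p = 1.79e-09), with no overlap, and MYAZ12.3i and MYAZ6.6g differed by 0.17. Cth, the second enzyme, stood at 10.6, 10.7 and 13.1 CPM against 10.1 to 11.3 and 9.14 to 11.2 and did not pass (0.18, adjusted p = 0.0751). So of the pair of enzymes 1 was below both other lines and the other overlapped them.

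Around them, Mat2a and Mat2b, which make S-adenosylmethionine, rose by 0.59 and 0.35, and Mtrr, the reductase of methionine synthase, fell by 0.43. On the side of cysteine use, Suox, sulfite oxidase, stood at 60.4, 67.5 and 63.7 CPM against 20.5 to 23 and 39.7 to 42 and rose by 1.13. The sulfur transferases parted, with Tst up by 0.55 and Mpst down by 0.69. Ado, cysteamine dioxygenase, fell by 0.24 and the sulfur dioxygenase Ethe1 by 0.22.

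Of 20 tested glutathione genes, 9 were lower and 7 higher (median -0.127). The transporter subunit Slc7a11 stood at 17.7, 17.7 and 17 CPM, between 19.6 to 23.2 in MYAZ12.3i and 9.36 to 10.2 in MYAZ6.6g, so its call as higher (0.28) rests on MYAZ6.6g. The catalytic subunit of glutamate-cysteine ligase, Gclc, stood at 83.8 to 88.6 CPM against 122 to 125 and 104 to 105 and fell by 0.37, while its modifier Gclm rose by 0.22 and the reductase Gsr by 0.43. Gclc lies on chromosome 9, whose median was -0.314. Larger falls were in Gpx3, a secreted glutathione peroxidase (0.298, 0.378 and 0.512 CPM against 0.999 to 1.62 and 4.34 to 5.76, by 2.64), Ggt7 (by 2.03), Oplah, which opens oxoproline (7.13 to 8.09 CPM against 16.8 to 18.8 and 22.3 to 25, by 1.39), and Glrx, glutaredoxin (by 1.01). Chac1, which cleaves glutathione, fell by 0.65 from 3.72 to 5.6 CPM to 2.68 to 3.21. The peroxidase Gpx4, which guards membrane lipids, did not pass (-0.03, 214 to 220 CPM against 212 to 242).

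The glutathione transferases were rearranged. Of 16 tested, 9 were lower and 6 higher (median -0.266). The membrane enzymes Mgst1, Mgst2 and Mgst3 rose by 2.37, 0.28 and 0.79, and Gsta1 rose by 2.22, from 0.375 to 1.48 CPM to 3.21 to 4.42. The mu-class genes Gstm1, Gstm2, Gstm4 and Gstm5 fell by 0.93, 0.79, 0.52 and 0.56. Gstm1 stood at 85.2 to 93.4 CPM against 205 to 208 and 140 to 148. Gstt1, of the theta class, stood at 0.273 to 0.298 CPM against 6.16 to 6.31 and 1.65 to 2.17 and fell by 3.56. Near-identical members of these families can trade reads, so single transferases are uncertain.

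Because MYAZ16.1e and Myc310 were both placed in cystine-free medium and the other MYAZ lines were not, the Myc310 values are given here beside each MYAZ line, in comparisons that share the Myc310 libraries. Of 13248 genes tested, 9404 passed against MYAZ16.1e (71%), 9926 against MYAZ12.3i (74.9%) and 9573 against MYAZ6.6g (72.3%). For Cbs, Myc310 (0.24, 0.178 and 0.616 CPM) did not differ from MYAZ16.1e by the test (0.74, edgeR adjusted p = 0.191), but was lower than MYAZ12.3i by 2.91 and than MYAZ6.6g by 2.75. For Cth, Myc310 was higher than all 3, by 1.41, 1.55 and 1.60. For Mpst, Myc310 minus MYAZ16.1e was 0.05, and Myc310 minus the others was -0.64 and -0.69.

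The sign of a Myc310 difference depended on the MYAZ line for some genes of glutathione use, at a share near that of all tested genes (9.43% against 8% with MYAZ16.1e and then the mean of the other lines as reference). Gpx3 was higher in Myc310 than in MYAZ16.1e by 1.46, and the same gene gave -0.22 against MYAZ12.3i, which did not pass, and -2.19 against MYAZ6.6g. Gstm1 gave 0.62, -0.60 and -0.08 in the same order of lines. Glrx gave 1.48, 0.51 and 0.39, so only its size changed. Suox gave 0.33, 1.88 and 0.98, and Mat2a gave 0.30, 0.96 and 0.78.

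**Figure D5:**
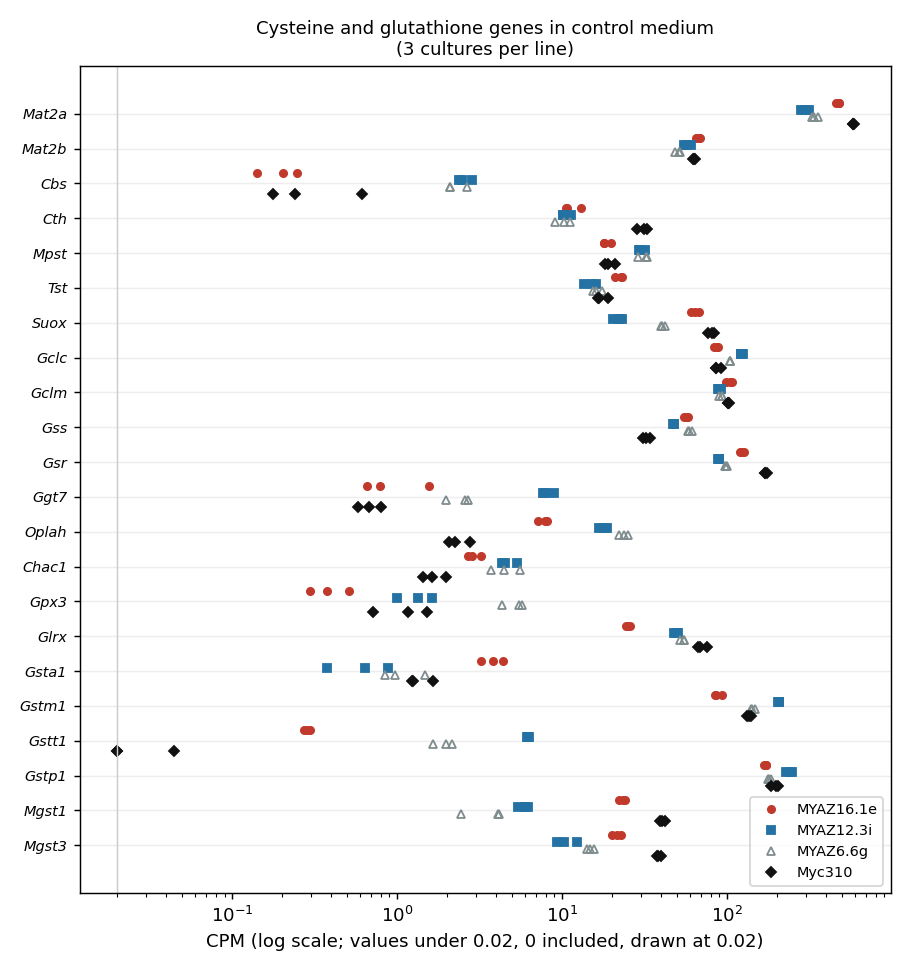
CPM on a log axis of genes of methionine, cysteine and glutathione metabolism in control medium, 1 point per culture, circles for MYAZ16.1e, squares for MYAZ12.3i, triangles for MYAZ6.6g and diamonds for Myc310. For Cbs the circles lie at 0.142 to 0.248 beside the Myc310 diamonds, and the squares and triangles lie above 2.

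The resting level of stress programs was also compared. The amino acid deprivation response is run by Atf4 and its targets when uncharged tRNA activates the eIF2alpha kinase Gcn2. Of 32 tested genes of this list, 20 were lower in MYAZ16.1e, 6 higher and 6 did not pass, with a median of -0.222 and a median of 0.0885 between the other lines. Atf4 stood at 216, 210 and 216 CPM against 234 to 241 and 271 to 276 and fell by 0.22. Its targets Atf5, Nupr1, Trib3 and Ddit3 fell by 0.81, 0.90, 0.44 and 0.47, the mTORC1 inhibitor Ddit4 fell by 1.01 from 131 to 168 CPM to 66.3 to 73.9, and the lipoprotein receptor Vldlr fell by 1.26. Mthfd2, a mitochondrial folate enzyme, rose by 0.31.

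NRF2, which the cell keeps low by degradation until oxidants or electrophiles block Keap1, drives many of the enzymes above. Its 25 targets divided into 11 higher and 9 lower, with a median of -0.00698. Nqo1, a quinone reductase, stood at 19.4, 19.8 and 18 CPM against 7.83 to 9.79 and 10.5 to 13.6 and rose by 0.91. The pentose phosphate enzymes parted: G6pdx and Pgd rose by 0.75 and 0.43 and Tkt fell by 1.03, from 312 to 353 CPM to 157 to 164. G6pdx lies on the X chromosome, whose median was 0.483. Ephx1, epoxide hydrolase, fell by 1.45 and catalase, Cat, by 0.51, while Hmox1 and Txnrd1 did not pass (-0.01 and 0.02).

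Among 16 tested genes of iron and ferroptosis, 6 were higher and 6 lower (median -0.018), a share of 75% against 68.2% of all tested genes. Acsl4, which places polyunsaturated fatty acids in membranes, rose by 0.45, the transferrin receptor Tfrc by 0.25 and the iron-responsive aconitase Aco1 by 0.48. Acsl4 lies on the X chromosome, whose median was 0.483. The ferritin chains Fth1 and Ftl1 fell by 0.26 and 0.20, and Fth1 stood at 1770 to 1880 CPM against 2370 to 2450 and 1960 to 2080. Of 16 serine and one-carbon genes, 7 were higher and 5 lower: Shmt1 and Tyms rose by 0.60 and 0.44, and Aldh1l1 and Aldh1l2 fell by 1.54 and 0.70. Aldh1l2 stood at 15.3 to 18.5 CPM against 43.9 to 47.6 in MYAZ12.3i and 16 to 16.8 in MYAZ6.6g, where MYAZ12.3i was the line apart.

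Sterol and fatty acid synthesis was lower in most steps. Of 27 tested genes, 19 were lower and 4 higher (median -0.418, and -0.204 between the other lines). The desaturase Scd1 fell by 1.02, from 227 to 240 CPM to 111 to 115, Fdps by 0.85 and Scd2 by 0.78. The fatty acid enzymes Fasn, Acly and Acaca, all on chromosome 11 (median 0.301), rose by 0.25, 0.25 and 0.16. Glycolysis genes were closer to even, with 10 higher and 5 lower of 21 (median 0.042), 71.4% against 68.2% of all tested genes. Pgk1, on the X chromosome, rose by 0.60, and the pyruvate kinase Pkm, on chromosome 9 (median -0.314), fell by 0.43.

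Proliferation genes were slightly higher, 19 of 23 rising and 2 falling (median 0.189). Birc5, survivin, stood at 121, 119 and 134 CPM against 72.4 to 73.9 and 80.7 to 87.8 and rose by 0.71, the mitotic kinase Aurkb rose by 0.55, E2f1 by 0.53 and Top2a by 0.43, while Ccnb2 fell by 0.12 and Cdk1 by 0.07. The Cdk1 call was lost without replicate 1 of MYAZ16.1e, replicate 2 of MYAZ12.3i or replicate 3 of MYAZ6.6g (-0.05 to -0.06). Birc5, Aurkb and Top2a lie on chromosome 11. Myc, the oncogene of the model, stood at 405, 428 and 431 CPM against 582 to 608 and 571 to 604 and fell by 0.45, and how many of its reads come from the transgene was not tested. Of the 10 tested genes of its network 7 were lower, among them the antagonists Mxi1 (by 0.98) and Mxd4 (by 0.84) and the partner Max (by 0.33).

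Of 19 tested p53 targets, 12 were higher and 6 lower (median 0.228). Trp53, which lies on chromosome 11, rose by 0.33, Ccng1, also on chromosome 11, by 0.70 and Perp by 0.86, whereas Sesn1 and Btg2 each fell by 1.11 and Bbc3 by 0.78. The inhibitor Cdkn1a rose by 0.30, from 19.9 to 23.9 CPM to 25.5 to 27.9. At the Cdkn2a locus, Mtap rose by 0.37 and Cdkn2a by 0.10, a call lost without replicate 1 of MYAZ16.1e (0.07), and the last of its 3 genes did not pass.

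Wnt ligands were found in both directions. Wnt7b stood at 26.8, 27.6 and 25.9 CPM against 8.08 to 9.51 and 6.87 to 8.07, Wnt10a rose by 2.37, from 1.69 to 5.94 CPM to 13.6 to 17.3, and Wnt6 by 2.49. Wnt10b and Wnt9a fell by 3.82 and 2.06, and Wnt5a had 0 counts in MYAZ16.1e and was at least 11.2-fold lower, a difference that rests on MYAZ12.3i (0.749 to 0.999 CPM against 0 to 0.126 in MYAZ6.6g). The feedback gene Axin2 had 1 count in MYAZ16.1e, a ratio of 25.5 (95% counting interval 4.38 to 1030). Of the 13 tested genes of this list 7 were lower and 5 higher. Among imprinted genes Cdkn1c, a growth inhibitor, stood at 0.894 to 0.944 CPM against 3.96 to 4.66 and 5.81 to 7.37 and fell by 2.50.

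A further test used the lines as units. Counts were summed over the cultures of each line, and the spread came from the lines within the other MYAZ, LM and LM-LM groups, so MYAZ16.1e, being 1 line, was assumed to vary as they do. The test treats these lines as independent, but the LM lines derive from Myc310 and LM1-LM derives from LM1. LM1 lay 0.39 from LM1-LM and LM3 lay 0.36 from LM3-LM in root mean square log2 difference, against 0.602 to 0.769 among the LM lines. Of 16017 genes, 40 passed an adjusted p of 0.05 in edgeR's quasi-likelihood test (0.25%), 21 higher (0.131%) and 19 lower (0.119%), and 2859 had an unadjusted p under 0.05. This count depended on the model, at 26 (1 higher, 25 lower) from the 3 MYAZ lines alone and 1400 by DESeq2, the latter chosen after seeing the data. Of the 798 genes outside both lines, 18 passed. Acta2, Pdgfrb, Xist and Krt19 did not pass at this level (edgeR adjusted p = 0.125, 0.0993, 0.315 and 0.659). Of all members of the gene lists, the single call was Twist2, a mesenchymal factor (lower by 3.00, edgeR adjusted p = 0.0318).

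Of the 21 higher genes, 14 lay on chromosome 11, where 1230 genes were tested. They included Atox1, a copper chaperone (95.4, 90.8 and 93.4 CPM against 41 to 45.4 and 45.1 to 47.9, a log2 fold change of 1.05), Dhrs13 (1.22), Syngr2 (1.03), Nhp2 (0.89), Flot2 (0.83), the signalling adaptor Grb2 (0.64) and the proteasome lid subunits Psmd12 (0.60) and Psmd11 (0.56). The other 6 on chromosome 11 were Ube2z, Nploc4, Pitpna, Sap30bp, Bltp2 and Atxn7l3, at 0.51 to 0.64. Dusp9, a MAP kinase phosphatase on the X chromosome, stood at 140, 148 and 140 CPM against 48.5 to 52.4 and 65.9 to 68.3 (1.29), and Ezr, ezrin, on chromosome 17, rose by 0.84. The rest were Tnfrsf12a (0.82) and Mllt1 (0.66) on chromosome 17, Cstf2 on the X chromosome (0.60), and Hspa14 (ENSMUSG00000109865, 0.58) and the proteasome subunit Psmb7 (0.55) in the first 40 Mb of chromosome 2.

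Among the 19 lower genes were Zfp503 and Gpc4, described above, with Bicd1, a dynein adaptor (0.149, 0.283 and 0.137 CPM against 4.54 to 5.06 and 4.92 to 6.84, lower by 4.84 in the summed test), Gmpr, a purine enzyme (by 3.69), and Ass1, which makes argininosuccinate for arginine synthesis (4.72, 4.77 and 5.77 CPM against 23.3 to 25.5 and 22.8 to 24.3, by 2.22). Foxo3, a stress-responsive transcription factor, stood at 63.1, 58.2 and 59.5 CPM against 134 to 138 and 128 to 135 and fell by 1.15. Ptk7, a Wnt co-receptor, fell by 1.24, and Cdk18 and Rassf3 each fell by 0.94. Twist2 was given above, and Lrrc75b fell by 1.69, AI467606 by 1.65, the cap-binding factor gene Eif4e3 by 1.63, Zrsr1 by 1.58, Cplx2 by 1.51, Pear1 by 1.31 and Sdf2l1 by 0.94. Zrsr1 was the single lower call on chromosome 11, in its first 30 Mb. The last had no symbol in the deposited table: ENSMUSG00000113626, a pseudogene in GENCODE, at 0 counts in MYAZ16.1e and 0.333 to 0.782 CPM in the other lines, and ENSMUSG00000021745, the receptor phosphatase gene Ptprg in GENCODE, which fell by 0.79.

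The last comparison placed each MYAZ line on a scale it had no part in setting. Genes were chosen that differed at least 2-fold between the other MYAZ lines and the 7 lines of the Myc310 lineage, and the line left out was then given a position per gene, from 0 at the other MYAZ lines to 1 at the lineage. MYAZ16.1e had a median position of 0.17 over 2200 genes, and in 521 of them (23.7%) it lay nearer to the lineage, with a range of 23.3 to 24.8% over its cultures. The same share was 11.1% of 1863 genes for MYAZ12.3i and 7.68% of 1952 genes for MYAZ6.6g, both with a median position of 0. Among genes that the lineage has lower the share was 30.2% for MYAZ16.1e, 5.91% for MYAZ12.3i and 3.89% for MYAZ6.6g. Among genes that the lineage has higher it was 14.7%, 16.5% and 11.9%, with median positions of 0, 0.0868 and 0.0654, so there MYAZ16.1e was not the line nearest to the lineage. The shares of the 3 lines are not independent: with MYAZ12.3i or MYAZ6.6g left out, MYAZ16.1e was 1 of the pair of lines that set the 0 end and chose the genes, so a MYAZ16.1e nearer to the lineage lowers the positions of the others.

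The positions are given by gene list for the lists with 3 or more genes on the scale, with no test between lists. Of 12 interferon-stimulated genes on the scale, 10 lay nearer to the lineage, with a median of 0.954, and of 8 basal genes 5 did, with a median of 0.644. Positions, where values above 1 lie beyond the lineage, ranged from 0.251 to 1.8 over the interferon-stimulated genes and from 0.00819 to 0.923 over the basal genes, with Cnn1 highest, Acta2 at 0.539 and Itga6 at 0.354. Over the 4 transsulfuration and cysteine genes on the scale they ran from 0.116 to 1.24, with Cbs at 1.24 and Cth at 0.123, and over the 5 glutathione genes from -0.116 to 1.51, with Gpx3 at 1.51. Of 9 mesenchymal genes 1 lay nearer to the lineage, with a median of 0.0123, and of 10 p53 targets 1 did. The count was 4 of 9 for the Wnt list, 2 of 8 for sterol and fatty acid synthesis and 2 of 8 for growth factors and receptors. In the lists with 3 to 7 genes on the scale, the count was 4 of 5 for glutathione genes and 3 of 6 for glutathione transferases. It was 3 of 7 for luminal genes, 3 of 7 for integrins and 2 of 5 for fibroblast markers. For transsulfuration and cysteine genes it was 2 of 4 and for amino acid deprivation genes 2 of 7. None of 3 NRF2 targets, 3 glycolysis genes or 3 imprinted genes lay nearer to the lineage.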

How the data were processed

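Bulk polyadenylated RNA of 3 MYAZ lines in control medium (9 libraries) was compared, with the control libraries of Myc310 and its descendants (21) as reference. The authors aligned reads with STAR to GRCm38 and counted genes with RSEM, and the values are deposited raw counts per gene. The submitters' notes name R 4.2.2 and DESeq2 1.38.3. The annotation and strand setting are not given in the sources used here, and coordinates came from GENCODE annotation of GRCm38, in which 28407 of 28454 genes were found.

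Counts were tested with edgeR 4.0.16 in R 4.3.3 (filterByExpr, TMM, glmQLFit and glmQLFTest, 1 coefficient per line, Benjamini-Hochberg adjustment over all genes tested, threshold 0.05). CPM values were scaled by TMM over the 30 control libraries, and log2 CPM used a prior count of 2. A gene at 0 counts in a line was given a floor of 3 counts over the group, and intervals cover counting error only. Depth was 19517859 to 29019988 counts per library. Named genes were the 12 largest increases and 12 largest decreases among genes outside both other lines, where mean log2 CPM reached 3 or more and libraries did not overlap, the 5 highest genes at 3 counts or fewer in each direction, members of gene lists, and genes called with lines as units. Some list members are not reported here. Members and lists were chosen with earlier results of these data known. Same-numbered cultures did not deviate together (r from -0.079 to 0.144), so the fit has no replicate block. Alternatives were other normalizations and filters, DESeq2 1.42.0, the block, all control libraries, and leaving out libraries. The scripts were tested on simulated data.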

Additional observations from a re-analysis of the deposited data

Results flagged for a closer look

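Among 53 tested transsulfuration, glutathione and glutathione transferase genes, 5 gave Myc310 differences of opposite direction depending on the MYAZ reference, each difference passing edgeR's adjusted p of 0.05. This share (9.43%) was near that of all tested genes, 1060 of 13248 (8%). These comparisons share the Myc310 libraries, and the values below for MYAZ16.1e minus the mean of the others come from the fit of 4 lines. Gpx3 was higher in Myc310 than in MYAZ16.1e by 1.46 and lower than in the others by 1.21 (-1.205), and MYAZ16.1e minus the others was -2.663 (edgeR adjusted p = 2.95e-08). Gstm1 gave 0.6168 and -0.3403, with -0.9571 between the references, and Gstp1 gave 0.1921 and -0.08726, with -0.2793. Gsta1 went the other way, at -1.475 and 0.7215, with 2.196 between the references, as did Mat2b at -0.101 and 0.2219, with 0.3229. Gsta1, Gstm1 and Gstp1 have near-identical relatives, so their counts are uncertain. The cause of these differences was not tested.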

How the results depend on the processing

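The count of 8848 genes stayed within 1.5 times of itself under all 20 alternatives tried, and was 8803 with the replicate number as a block, with 1205 at least 2-fold and 787 outside both lines, so the block moved none of these counts by over 1.5 times, and the numbers do not pair the cultures. Requiring at least 10 counts in every library removes genes that are off in a line and left 620 genes at least 2-fold, with 404 outside both lines for MYAZ16.1e, 152 for MYAZ12.3i and 45 for MYAZ6.6g. With lines as units the count depended most on the model: 26 genes (1 higher, 25 lower) from the 3 MYAZ lines alone, of which 2 were shared with the 40, and 1400 (648 higher, 752 lower) by DESeq2 on summed counts, an alternative chosen after seeing the data, of which all 40 were shared. RLE scaling gave 36 (19 higher). Of the higher calls, 14 of 21 lay on chromosome 11 as reported, 12 of 19 with RLE, 204 of 648 by DESeq2 and 1 of 1 from the 3 MYAZ lines alone. The cause of the gap between tools was not tested.

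The share of genes in which the left-out line lay nearer to the lineage was 26.9% for MYAZ16.1e, 8% for MYAZ12.3i and 6.08% for MYAZ6.6g with Myc310 alone as the other end, and 20%, 8.95% and 5.18% at a 4-fold threshold, MYAZ16.1e being highest in both. Upper-quartile scaling lowered the median of all genes by 0.034 (from 49.6% to 45.2% higher) and moved list medians to -0.161 for glutathione, -0.3 for transferases, -0.0413 for NRF2, -0.256 for amino acid deprivation, -0.0523 for iron, -0.0315 for serine and one-carbon, -0.518 for mesenchymal, -1.24 for adipocyte, 0.194 for p53, 0.155 for proliferation and 0.00765 for glycolysis. Restricted to a mean log2 CPM of at least 3, the medians less the autosomal median were -0.308 for chromosome 9 and 0.319 for chromosome 11.

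Of 4518 values recomputed for 228 genes named in the text, 4428 kept their direction and side of the threshold, 49 lost and 18 gained a call, and 23 changed sign. With MYAZ12.3i as the only other line, Slc7a11 gave -0.28, Cdh2 0.1151 and Gpx4 0.0283. With MYAZ6.6g alone, Pdgfra gave 0.0534, Cxcl10 1.25, Gbp2 0.0643, Bst2 0.238, Xaf1 0.118, H2-K1 0.153, Aldh1l2 0.0523, Hmox1 0.0173, Txnrd1 -0.0876, Ager -0.15 and Napsa 0.02. With single libraries left out, Cxcl10 ranged from -0.534 without replicate 3 of MYAZ16.1e to 0.154 without its replicate 2, Ager from -0.246 without replicate 3 of MYAZ16.1e to 0.209 without replicate 1 of MYAZ12.3i, and Hmox1 from -0.0447 without replicate 3 of MYAZ16.1e to 0.0465 without its replicate 1. Without both replicate 3 of MYAZ16.1e and replicate 2 of MYAZ12.3i, whose library numbers stand apart, Ager gave -0.304. Txnrd1 gave -0.0189 under upper-quartile scaling and -0.00633 with all 30 control libraries. The cause of these changes of sign was not tested.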
